A study of Homo sapiens with 16 samples.

Results

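The 10 genes described here lie close together in band 7q11.23 on the long arm of chromosome 7: BAZ1B, BCL7B, TBL2, DNAJC30, BUD23, STX1A, ABHD11, LIMK1, EIF4H and RFC2, in that order. They are 10 of the 18132 genes measured by microarray in H1 cells, a human embryonic stem cell line, during differentiation to definitive endoderm. The members were chosen by the levels of BAZ1B and BUD23, which had been seen to be higher in cells carrying a hairpin against GATA6 on every day and in rescue. Their differences from control are therefore given as a description, with no test. The other 8 genes, called the neighbours below, were listed to ask whether genes beside them share that difference.

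All cells were H1 cells and all were transduced with a lentiviral vector. Depleted cells carried a GATA6 shRNA and were collected on days 3, 4 and 5. Rescue cells carried the same hairpin plus a doxycycline-inducible, shRNA-resistant GATA6 cDNA, received 60 ng/mL doxycycline for 96 h and were collected on day 5. Control cells carried the empty vector and were collected on days 0, 3, 4 and 5, day 0 being pluripotent. Differentiating cells received Activin A, BMP4 and FGF2, followed by Activin A alone. Each of the 8 groups held 2 arrays. The lines were polyclonal populations and the rescue line was derived from the depleted one, so that all 8 hairpin-line arrays go back to 1 transduced population. The hairpin and the line that carries it cannot be told apart here, and no hairpin-line cells were measured on day 0.

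Loss of 1 copy of this band causes Williams-Beuren syndrome, a developmental disorder with heart, facial and cognitive features. The members have unrelated biochemical roles. BAZ1B, also known as WSTF, pairs with the remodelling ATPase SMARCA5 at replicating and damaged chromatin. BUD23 methylates 18S ribosomal RNA together with its cofactor TRMT112. EIF4H stimulates the RNA helicase EIF4A in translation initiation, RFC2 is a subunit of the clamp loader that places PCNA on DNA, and BCL7B is a subunit of BAF chromatin remodelling complexes. DNAJC30 and ABHD11 are mitochondrial proteins, TBL2 is a protein of the endoplasmic reticulum that binds the stress kinase PERK, STX1A is a syntaxin of regulated exocytosis, and LIMK1 phosphorylates the actin-severing protein cofilin.

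The promoters of 4 members whose arrays separated by hairpin are shown from 250 bases before to 50 bases after the annotated start, as RefSeq gives them for GRCh38.p14. BAZ1B (chr7:73522244-73522543, minus strand) and BUD23 (chr7:73683347-73683646, plus strand) are the genes that chose the list. EIF4H (chr7:74174106-74174405, plus strand) and RFC2 (chr7:74254350-74254649, minus strand) are the neighbours with the highest Pearson correlation with BUD23 and with BAZ1B. Capitals mark a GATA motif and everything else is in lower case.
BAZ1B: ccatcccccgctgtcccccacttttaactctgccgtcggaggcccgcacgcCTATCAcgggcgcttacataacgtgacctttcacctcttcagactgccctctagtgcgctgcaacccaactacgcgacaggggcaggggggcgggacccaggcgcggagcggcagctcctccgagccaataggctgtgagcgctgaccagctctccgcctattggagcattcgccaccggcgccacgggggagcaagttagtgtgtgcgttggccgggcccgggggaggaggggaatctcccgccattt
BUD23: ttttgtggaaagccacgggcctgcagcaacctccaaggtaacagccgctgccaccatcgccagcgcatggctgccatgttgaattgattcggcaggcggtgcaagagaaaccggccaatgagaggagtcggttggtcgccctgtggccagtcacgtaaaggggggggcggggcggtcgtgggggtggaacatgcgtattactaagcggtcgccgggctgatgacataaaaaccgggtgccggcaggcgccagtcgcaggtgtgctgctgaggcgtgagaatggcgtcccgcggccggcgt
EIF4H: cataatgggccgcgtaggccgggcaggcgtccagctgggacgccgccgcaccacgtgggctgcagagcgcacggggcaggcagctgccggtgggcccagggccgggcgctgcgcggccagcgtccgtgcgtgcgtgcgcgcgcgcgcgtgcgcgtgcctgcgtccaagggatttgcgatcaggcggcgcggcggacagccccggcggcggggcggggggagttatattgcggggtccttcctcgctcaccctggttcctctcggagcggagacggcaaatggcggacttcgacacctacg
RFC2: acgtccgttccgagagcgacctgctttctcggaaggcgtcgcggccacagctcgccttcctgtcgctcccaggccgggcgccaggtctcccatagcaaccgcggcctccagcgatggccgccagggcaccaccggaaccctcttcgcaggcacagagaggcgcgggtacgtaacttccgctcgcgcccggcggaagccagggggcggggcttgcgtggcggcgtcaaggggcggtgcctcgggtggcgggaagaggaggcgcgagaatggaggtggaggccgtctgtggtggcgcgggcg
The motif was searched on both strands as the letters AGATAA, or AGATAG, or TGATAA, or TGATAG. It was present in 1 of the 10 member promoters, that of BAZ1B, where it reads CTATCA on the printed strand, and in 25% of the 35116 promoters in the table. All 10 members had a promoter in the table. They were rich in G and C (63.3 to 79.7%, against a median of 58.7% over all promoters) and in the dinucleotide CG (26 to 45 per window, against a median of 14). DNAJC30 (chr7:73683404-73683703, minus strand) and BUD23 face away from each other with starts 144 bases apart, and their windows share 243 bases, so most of the BUD23 sequence above is also the DNAJC30 promoter read from the other strand.

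Levels are log2 values after robust multi-array averaging (RMA), and a difference of 1 log2 is a 2-fold change. The lower quartile of an array lay between 2.94 and 3.06, and the median gene had a mean of 5.57. GATA6 read 9.76 and 9.90 in depleted against 11.44 and 11.60 in control on day 3, 7.92 and 6.62 against 11.44 and 11.53 on day 4, and 6.37 and 6.62 against 11.56 and 11.49 on day 5. It read 8.43 and 8.32 in rescue, but whether this probe set lies within the rescue cDNA was not analysed here, so that value does not check the transgene. The 6 definitive endoderm markers other than GATA6 averaged 9.46 to 9.81 in control arrays of day 5 and 3.59 to 3.66 on day 0, and all 6 were called higher on day 5. Of all genes 15.9% were called higher in that comparison. The spiked-in bioB control read 7.26 to 7.29 on the rescue arrays and 7.66 to 7.74 on the control day 0 arrays, against 8.39 to 8.96 on the other 12. The rescue arrays also lay closer to each other (SD 0.104) than any other pair (0.163 to 0.245), which leaves their independence uncertain, and rescue against control is also given with these arrays as 1 sample for the neighbours and for 6 further genes of the band.

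BAZ1B and BUD23 were higher in every hairpin-line array than in every control array. BAZ1B read 8.17 and 8.13 in depleted cells against 7.44 and 7.52 in control on day 3. On day 4 it read 8.32 and 8.06 in depleted against 7.26 and 7.26 in control, and on day 5 it read 7.89 and 7.88 in rescue, 8.04 and 8.02 in depleted and 7.16 and 7.07 in control. The lowest hairpin-line array stood 0.36 above the highest control array, and the mean difference over days 3, 4 and 5 was 0.84 ± 0.06 (SE), a 1.79-fold higher level.

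BUD23 was separated more widely. It read 8.69 and 8.65 in depleted against 7.62 and 7.64 in control on day 3, and 8.87 and 8.90 against 7.40 and 7.67 on day 4. The day 5 arrays read 8.87 and 8.82 in rescue, 8.74 and 8.79 in depleted and 7.59 and 7.59 in control. The gap between hairpin-line and control arrays was 0.67 and the mean difference 1.19 ± 0.07, or 2.28-fold. Pluripotent control cells were also below every hairpin-line array in both genes, with 7.37 and 7.50 for BAZ1B and 7.74 and 7.98 for BUD23 on day 0.

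**Figure D1:**
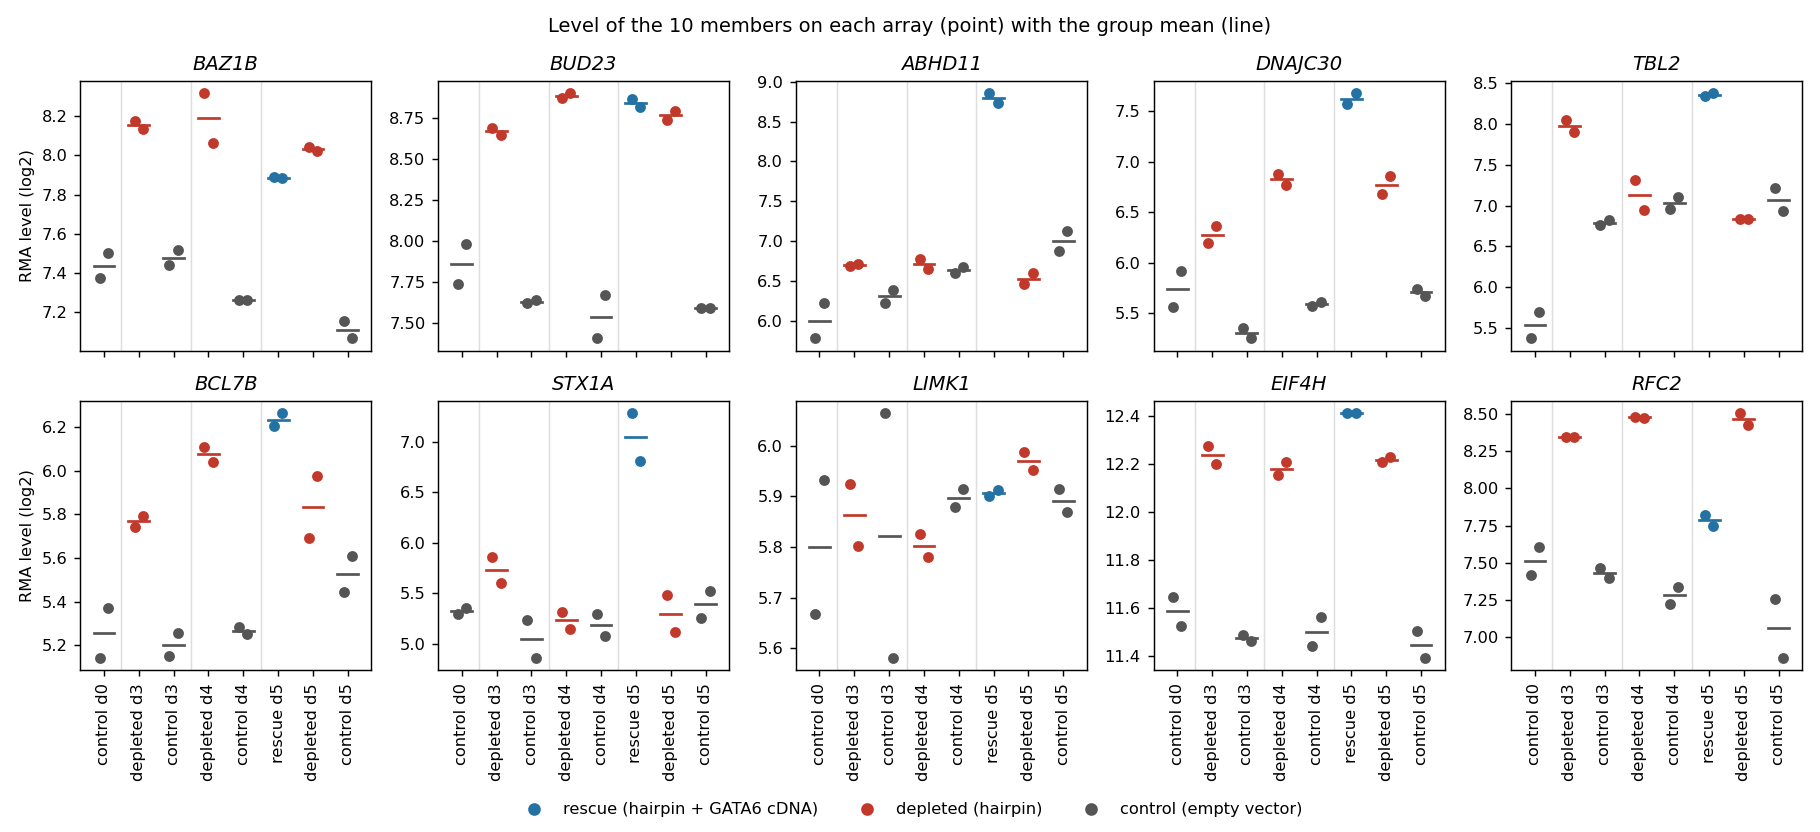
RMA level (log2) of each member on each of the 16 arrays, by group, with the vertical scale set per gene. Points are arrays and lines are the means of 2; in BAZ1B, BUD23, DNAJC30, BCL7B, EIF4H and RFC2 all 8 hairpin-line points lie above all 8 control points.

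The neighbours differed among themselves. DNAJC30, EIF4H and RFC2 were called higher in all 4 comparisons with control (depleted on days 3, 4 and 5, and rescue on day 5), which 0.381% of all genes were. BCL7B was called on days 3 and 4 and in rescue. TBL2 was called on day 3 and in rescue, STX1A and ABHD11 were called higher in rescue only, and LIMK1 was called in none. A call means an adjusted p under 0.05 by limma with Benjamini-Hochberg adjustment over all 18132 genes.

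EIF4H, the brightest of the members, had the widest gap of the neighbours. It read 12.27 and 12.20 in depleted against 11.48 and 11.46 in control on day 3, and 12.15 and 12.21 against 11.44 and 11.56 on day 4. On day 5 it read 12.41 and 12.41 in rescue, 12.21 and 12.23 in depleted and 11.50 and 11.39 in control. No hairpin-line array came within 0.51 of a control array. The differences were 0.76 ± 0.10 on day 3 (limma, adjusted p = 0.0011), 0.68 ± 0.10 on day 4 (adjusted p = 2.2e-04), 0.77 ± 0.10 on day 5 (adjusted p = 6.7e-05) and 0.96 ± 0.10 in rescue (adjusted p = 3.0e-05). With only the groups compared in the fit, the day 3 call was lost (adjusted p = 0.069).

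RFC2 was higher in depleted cells on all 3 days, and by less in rescue. It read 8.34 and 8.34 in depleted against 7.47 and 7.39 in control on day 3, and 8.48 and 8.48 against 7.22 and 7.34 on day 4. The day 5 values were 7.82 and 7.75 in rescue, 8.51 and 8.42 in depleted and 7.26 and 6.86 in control. Rescue lay between the other groups: it was 0.73 ± 0.13 above control (limma, adjusted p = 0.0015) and 0.68 ± 0.13 below depleted (adjusted p = 0.001). RFC2 was the 1 neighbour called lower in rescue than in depleted cells. Its differences in depleted cells were 0.91, 1.20 and 1.41 on days 3, 4 and 5, and the change between day 3 and day 5 was not called (0.49 ± 0.18, adjusted p = 0.087).

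DNAJC30 shares its promoter region with BUD23, as printed above, and it was higher in both hairpin lines, most of all in rescue. It read 6.19 and 6.37 in depleted against 5.35 and 5.25 in control on day 3, and 6.88 and 6.77 against 5.57 and 5.61 on day 4. Day 5 arrays read 7.57 and 7.68 in rescue, 6.68 and 6.86 in depleted and 5.74 and 5.68 in control. The mean depletion difference was 1.09 ± 0.08 (limma, adjusted p = 2.1e-07), close in size to that of BUD23. In rescue it stood 1.92 ± 0.13 above control (adjusted p = 1.0e-06) and 0.85 ± 0.13 above depleted (adjusted p = 1.8e-04), while BUD23 differed between rescue and depleted by 0.08. The excess of DNAJC30 over depleted rests on its brightest probe set. Its other probe sets were at 0.14 and 0.16, and with all of them averaged the call was lost (0.39, limma, adjusted p = 0.067).

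BCL7B separated by the smallest margin of the 6. It read 5.74 and 5.79 in depleted against 5.15 and 5.26 in control on day 3, and 6.11 and 6.04 against 5.28 and 5.25 on day 4. On day 5 it read 6.20 and 6.26 in rescue, 5.69 and 5.98 in depleted and 5.44 and 5.61 in control. The lowest hairpin-line array and the highest control array, both of day 5, were 0.08 apart. The difference was 0.56 ± 0.12 on day 3 (limma, adjusted p = 0.024), 0.81 ± 0.12 on day 4 (adjusted p = 2.9e-04), 0.31 ± 0.12 on day 5 (adjusted p = 0.077) and 0.71 ± 0.12 in rescue (adjusted p = 0.0014). The day 3 call was lost when any 1 of its 4 arrays was left out (adjusted p between 0.072 and 0.129) and with only the compared groups fitted (0.144).

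TBL2 showed a difference that depended on the day. It read 8.04 and 7.90 in depleted against 6.76 and 6.82 in control on day 3, but 7.31 and 6.95 against 6.96 and 7.11 on day 4. The values on day 5 were 8.34 and 8.37 in rescue, 6.84 and 6.84 in depleted and 7.21 and 6.93 in control. It was thus 1.18 ± 0.15 higher on day 3 (limma, adjusted p = 8.6e-04) and at -0.23 on day 5 (adjusted p = 0.27), and the difference between those effects was itself called (-1.41 ± 0.21, adjusted p = 5.9e-04). Rescue exceeded control by 1.28 ± 0.15 (adjusted p = 7.0e-05) and depleted by 1.52 ± 0.15 (adjusted p = 4.5e-06).

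ABHD11 and STX1A, which lie close to each other beyond BUD23, were high in rescue alone among the day 5 groups. ABHD11 read 8.85 and 8.73 in rescue, 6.46 and 6.59 in depleted and 6.87 and 7.13 in control on day 5. On day 3 it read 6.68 and 6.71 in depleted against 6.23 and 6.39 in control, and on day 4 it read 6.77 and 6.65 against 6.60 and 6.67. Rescue exceeded control by 1.79 ± 0.15 (limma, adjusted p = 4.6e-06), whereas depleted cells were 0.47 ± 0.15 below control on day 5 (adjusted p = 0.025). That lower call was lost without depleted replicate 1 (adjusted p = 0.14), depleted replicate 2 (0.053) or control replicate 2 (0.178) of day 5. It was also lost with all probe sets averaged (-0.24, limma, adjusted p = 0.082).

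STX1A read 7.28 and 6.80 in rescue, 5.49 and 5.11 in depleted and 5.26 and 5.53 in control on day 5. In depleted cells it read 5.87 and 5.61 against 5.23 and 4.86 in control on day 3, and 5.32 and 5.15 against 5.29 and 5.08 on day 4. Rescue was 1.65 ± 0.19 above control (limma, adjusted p = 7.0e-05). The day 3 difference of 0.69 ± 0.19 missed the threshold (adjusted p = 0.071).

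LIMK1 did not separate on its representative probe set. Depleted arrays read 5.92 and 5.80 against 6.06 and 5.58 in control on day 3, and 5.83 and 5.78 against 5.88 and 5.91 on day 4. On day 5 the values were 5.90 and 5.91 in rescue, 5.99 and 5.95 in depleted and 5.91 and 5.87 in control. The mean difference over the 3 days was 0.01 ± 0.08 (limma, adjusted p = 0.96), but its probe sets disagreed, as given further on.

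**Figure D2:**
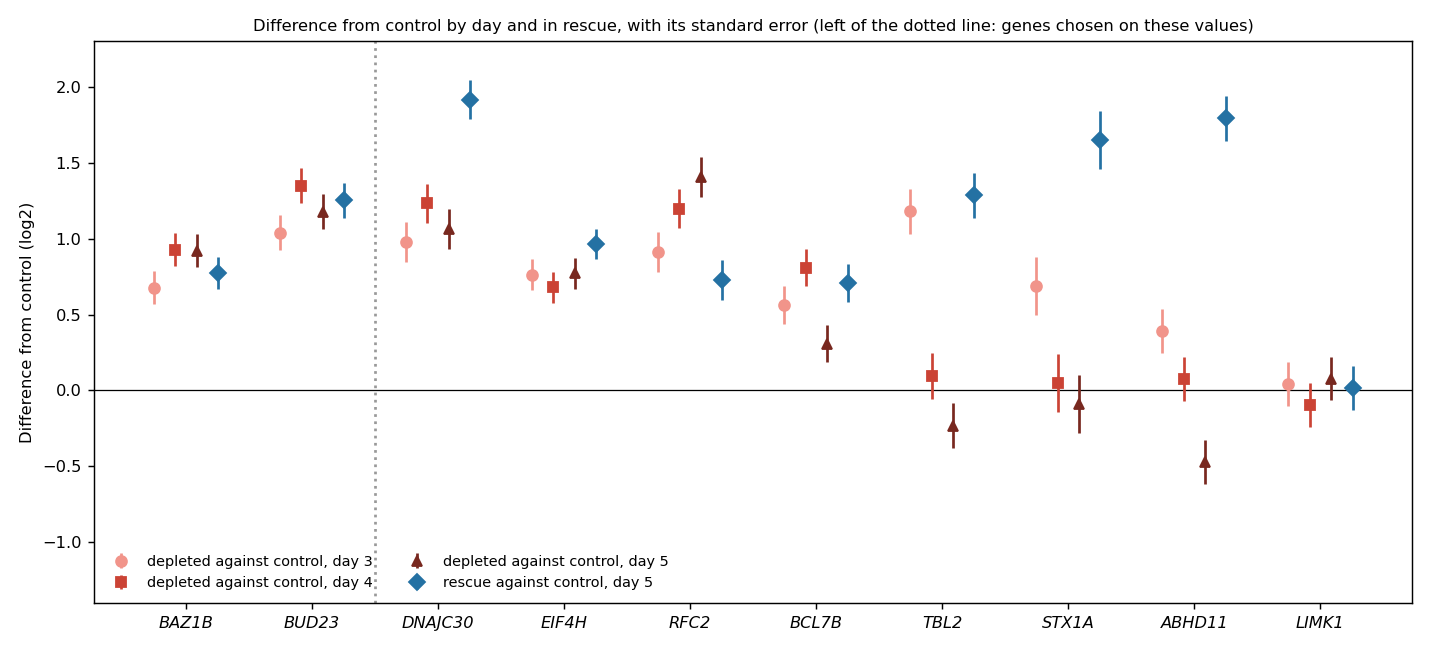
Difference from control (log2, with its standard error) of each member in depleted cells on days 3, 4 and 5 and in rescue cells on day 5. DNAJC30, EIF4H and RFC2 stay above 0.6 throughout, TBL2, STX1A and ABHD11 are high in rescue but near or below 0 in depleted cells on day 5, and LIMK1 stays near 0.

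Counted over the 8 neighbours, 5 were called higher and 0 lower in depleted cells on day 3, when 1.79% of all genes were called higher. Called in either direction on that day were 680 of 18132 genes. On day 4 there were 4 higher and 0 lower (background 14.8% higher, with 5108 of 18132 genes called in either direction). On day 5 there were 3 higher and 1 lower, against 16.5% of all genes called higher and 16% called lower. The median difference of the neighbours was 0.73, 0.39 and 0.19 on days 3, 4 and 5, with all-gene medians of -0.01, -0.01 and 0.04. Over the mean of the 3 days 5 neighbours were called higher (background 19.1%). The change of effect between day 3 and day 5 was called positive in 0 and negative in 2, TBL2 and ABHD11, against 8.63% and 9.26% of all genes.

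In rescue against control 7 of the 8 neighbours were called higher, with LIMK1 the exception, and their median difference was 1.12 (background 13.8% higher). Against depleted cells, rescue was called higher in 5 (ABHD11, STX1A, TBL2, DNAJC30 and BCL7B) and lower in RFC2, with backgrounds of 21.9% and 17.6%. With the rescue arrays as 1 sample the same 7 neighbours were above control, with adjusted p by limma between 4.4e-05 and 0.0166, and BCL7B was no longer above depleted (adjusted p = 0.088). Both comparisons on day 5 against control share the same 2 control arrays.

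The 8 hairpin-line arrays all lay above the 8 control arrays in 61 of the 18132 genes (0.336%), and in 44 they all lay below. Among the members this held for BAZ1B and BUD23, which the choice of members fixed, and for 4 of the 8 neighbours: DNAJC30, EIF4H, RFC2 and BCL7B. Against the 6 control arrays of days 3 to 5 alone it held for the same number of neighbours, with 2.06% of all genes. Leaving out both rescue arrays, a choice made after seeing the data, gave 4 of 8 neighbours and 174 genes in all. Leaving out the day 0 arrays too, which removes every array with a low bioB reading, gave 4 of 8 and 855. Ranked by the gap between the groups, BUD23 was 3rd and EIF4H 4th of the 61 and BAZ1B 8th. On the probe set used for each, the genes listed for the band nearest to the border were METTL27 and BCL7B inside it, at 0.01 and 0.08. CLDN4 and LIMK1 were nearest outside it, at -0.18 and -0.29.

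**Figure D3:**
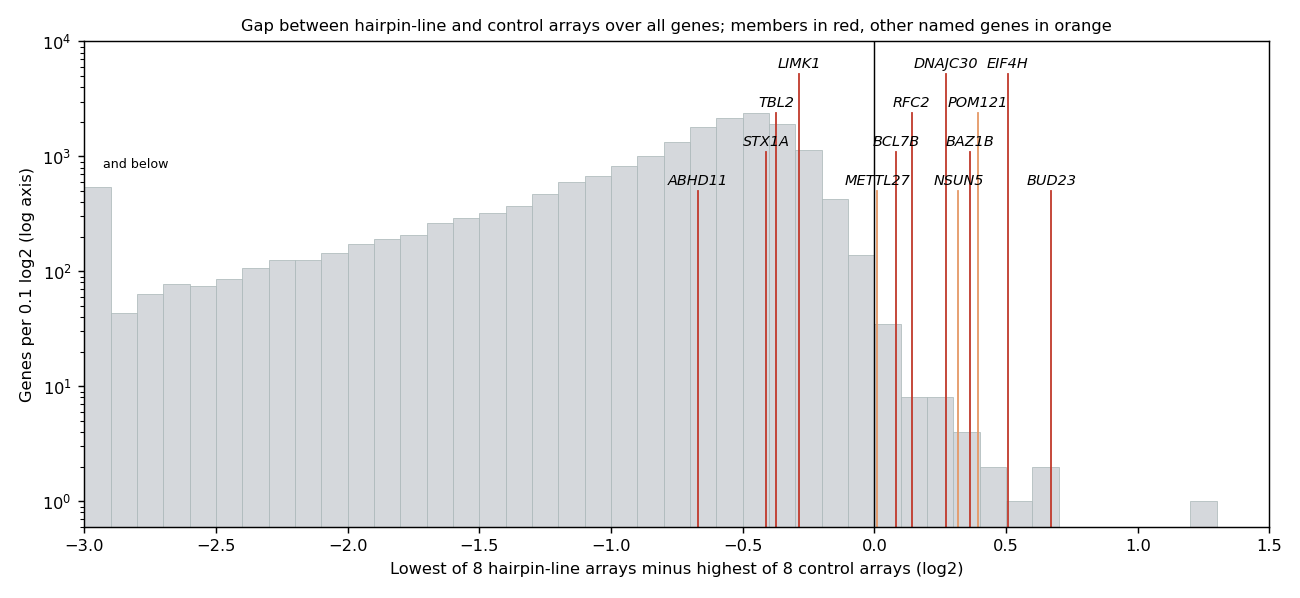
Lowest hairpin-line array minus highest control array (log2) over all 18132 genes, as genes per bin on a log axis, with genes named in the text marked. Right of 0 lie 61 genes, among them BUD23 at 0.67, EIF4H at 0.51 and BAZ1B at 0.36, while ABHD11, TBL2, STX1A and LIMK1 lie left of it; the first bar also holds genes below the axis.

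Several of the separated genes lay side by side. Chromosome 7 carried 10 of the 61 on 829 measured genes, against at most 5 on any other chromosome, and 9 of those 10 lay between POM121 and RFC2. They were the 6 members, NSUN5, METTL27 and POM121. The tenth was TWIST1, a mesoderm transcription factor elsewhere on chromosome 7, which had the widest gap of all genes (1.29). In windows of 20 neighbouring measured genes moved along each chromosome, the fullest window of this region held 7 such genes, or 5 without BAZ1B and BUD23. Of the 17591 windows away from the region none held more than 2, and 59 held that many. This scan was chosen after the data had been seen and is a description.

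The region did not stand out by the median shift of its windows. Its highest window median was 0.23 for the mean depletion difference and 0.81 for rescue against control, whereas windows elsewhere reached 0.92 and 1.04. These medians take in genes of any level. Among the 28 genes listed for the band, 14 had a mean above the median of all genes. Of these, 8 had all hairpin-line arrays above all control arrays, or 6 of 12 without BAZ1B and BUD23. Of the 14 below that median 0 did. The part of the level in this was not tested.

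**Figure D4:**
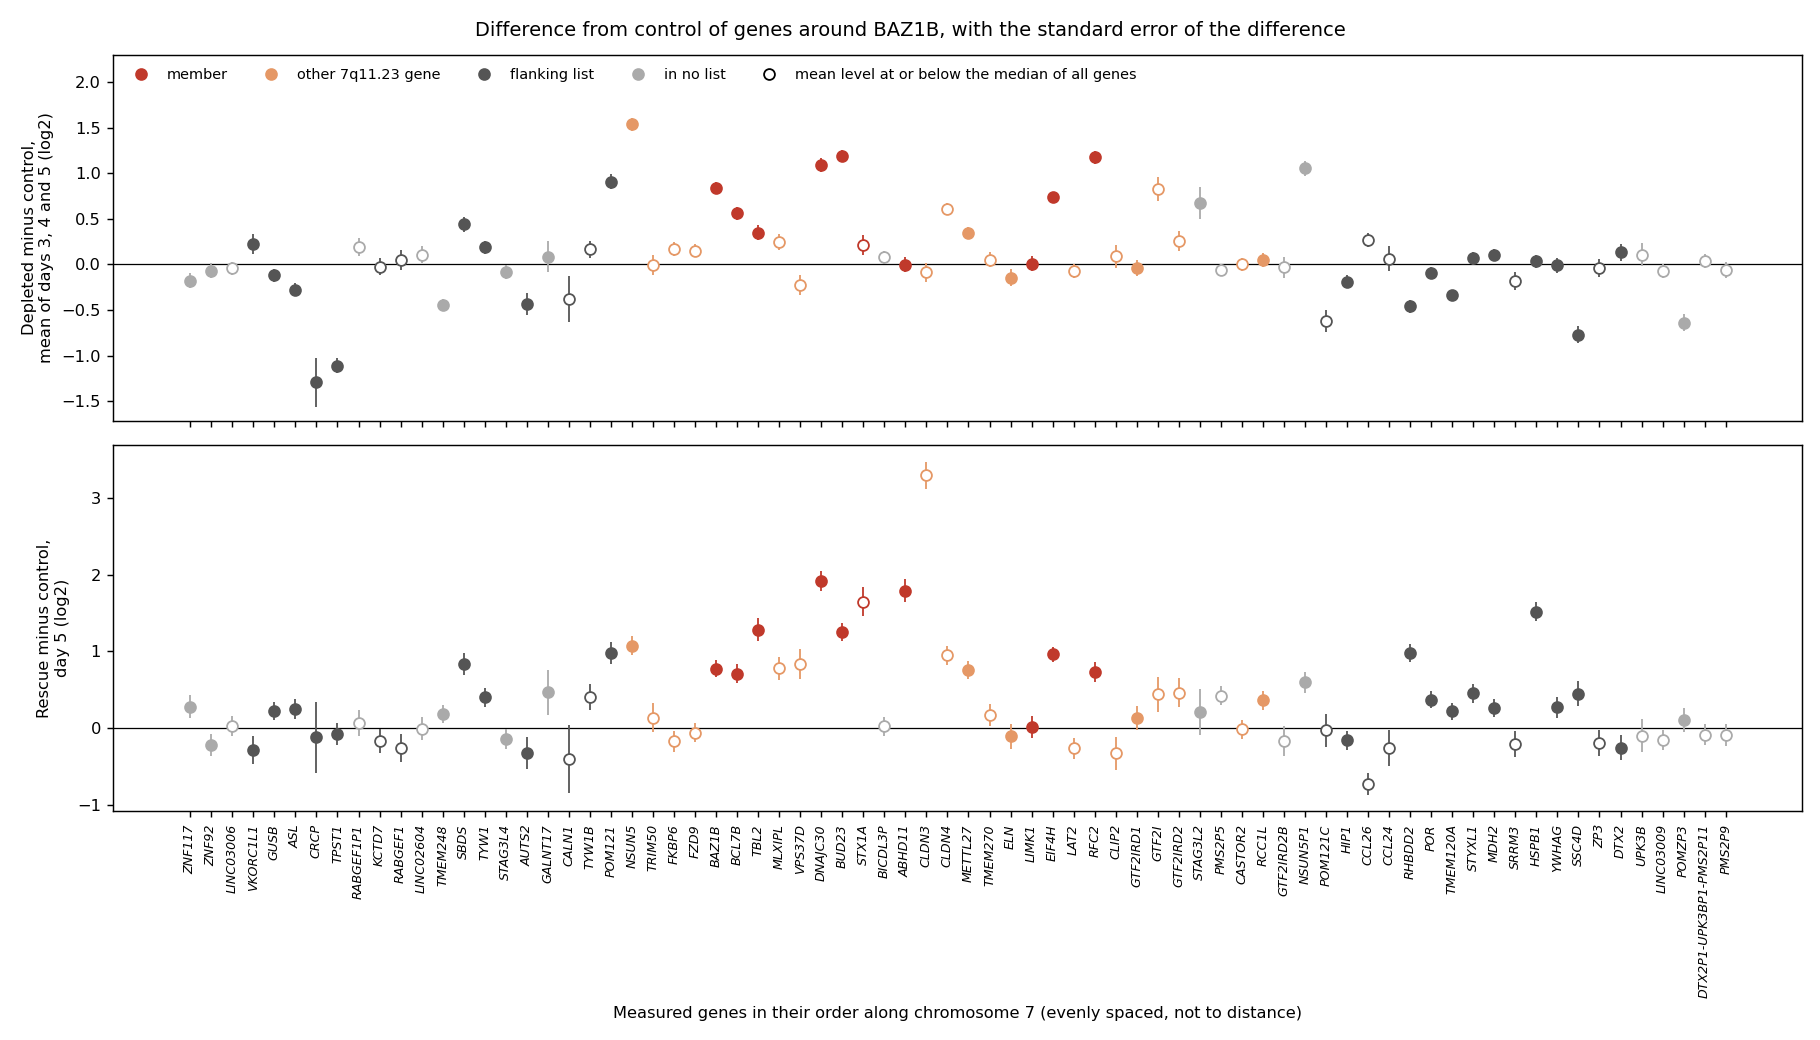
Mean depletion difference (top) and rescue minus control (bottom), in log2 with standard errors, for measured genes in their order along chromosome 7. Open symbols mark genes whose mean level was at or below the median of all genes. Differences above 0.5 in the top panel cluster between POM121 and NSUN5P1, with several genes near 0 among them, and no gene outside that stretch exceeds 0.5.

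Among 18 further measured genes listed for the band, 5 were called higher by the mean depletion difference, against 19.1% of all genes. In rescue against control 6 were, against 13.8% of all genes. Of the 5, MLXIPL (limma, adjusted p = 0.038) lost its call with all probe sets averaged (0.063) and in several fits without 1 array. Genes of the band are here the members and these 18, a chosen list, since the flanking list below also holds genes of 7q11.23. NSUN5, a 28S ribosomal RNA methyltransferase, read 8.44 and 8.40 in depleted against 7.54 and 7.71 in control on day 3, and 9.45 and 9.65 against 7.42 and 7.70 on day 4. The day 5 values were 8.92 and 8.84 in rescue, 9.61 and 9.63 in depleted and 7.72 and 7.89 in control. Every hairpin-line array was above every control array, by at least 0.32, and NSUN5 was called higher in all 4 comparisons (limma, adjusted p between 2.8e-07 and 0.0035), the day 3 call being lost with only the compared groups fitted (0.070). METTL27, a methyltransferase-like protein, separated by 0.01, with 0.57 ± 0.12 on day 5 (adjusted p = 0.0019) and 0.76 ± 0.12 in rescue (adjusted p = 5.0e-04). Its dimmer probe sets at levels of 4.63 and 4.22 also separated, reading 1.53 and 1.40 higher in rescue than in control. The dimmest, at 3.10, did not separate and was at -0.07 in rescue.

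CLDN3, a tight junction claudin beside ABHD11, was also high in rescue alone among the day 5 groups. It read 7.93 and 7.90 in rescue, 4.32 and 4.29 in depleted and 4.24 and 4.99 in control on day 5, a rescue difference of 3.30 ± 0.18 from control (limma, adjusted p = 1.5e-07). CLDN4, another claudin, was higher in both hairpin lines on day 5, by 1.07 ± 0.12 in depleted (adjusted p = 2.1e-05) and 0.95 ± 0.12 in rescue (adjusted p = 1.4e-04). On day 4 depleted cells were 0.52 ± 0.12 higher (adjusted p = 0.0055), which was lost without depleted replicate 2 (0.077). A CLDN4 probe set at 4.90 read 1.12, 2.23 and 1.99 higher on days 3, 4 and 5 and 2.13 in rescue, all called (limma over all single-gene probe sets). Another, at 4.71, read 0.31 (not called), 2.46, 1.95 and 1.60. VPS37D, an ESCRT subunit, was called higher in rescue only (0.84 ± 0.19, adjusted p = 0.0081), and MLXIPL, a glucose-responsive transcription factor, was higher in depleted on day 5 (0.70 ± 0.15, adjusted p = 0.0028) and in rescue (0.78 ± 0.15, adjusted p = 0.0024). GTF2IRD1 was the other gene called higher on day 3 (0.71 ± 0.15, adjusted p = 0.023), and like TBL2 it was not higher later, at -0.67 ± 0.15 on day 5 (adjusted p = 0.0047). Its day 3 call was lost without depleted replicate 1 (adjusted p = 0.084), depleted replicate 2 (0.141) or control replicate 1 (0.105) of that day and with only the compared groups fitted (0.143), and its day 5 call without control replicate 2 of day 5 (0.057). With the rescue arrays as 1 sample NSUN5, METTL27, CLDN3, CLDN4 and MLXIPL were still above control (adjusted p by limma between 7.9e-06 and 0.0223) and VPS37D was not (0.053). VPS37D also missed the threshold without rescue replicate 1 (0.053), rescue replicate 2 (0.051) or control replicate 2 of day 5 (0.069).

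GTF2I, GTF2IRD2, CLIP2, FZD9 and RCC1L were the other genes of the band with a call. GTF2I, a general transcription factor, averaged 3.77 in depleted against 2.99 in control on day 4 and 3.67 against 2.56 on day 5, levels near or below the lower quartile of an array in control. Its differences were 0.79 ± 0.23 on day 4 (limma, adjusted p = 0.020) and 1.11 ± 0.23 on day 5 (adjusted p = 0.0021), and the first was lost without depleted replicate 1 (0.074), depleted replicate 2 (0.089) or control replicate 1 (0.142) of day 4. It was at 0.44 in rescue (adjusted p = 0.20). GTF2IRD2, a related gene, was called on day 4 alone of the comparisons with control (0.61 ± 0.19, adjusted p = 0.028), which was lost without depleted replicate 2 (0.239) or control replicate 2 (0.229) of that day and with only the compared groups fitted (0.067). CLIP2, a microtubule-binding protein, was called lower on day 5 (-0.61 ± 0.21, adjusted p = 0.044). That call was lost without depleted replicate 1 (0.098), depleted replicate 2 (0.173) or control replicate 2 (0.376) of day 5, without either rescue array (0.059) or any array of day 4 (0.054), and with only the compared groups fitted (0.082). FZD9, a Wnt receptor, was called lower in rescue than in depleted cells (-0.34 ± 0.12, adjusted p = 0.036), and RCC1L was called lower in control cells on days 3 and 5 than on day 0 (-0.46 ± 0.13 and -0.39 ± 0.13).

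In a list of 37 measured flanking genes on chromosome 7, some of them also in 7q11.23, 1 was called higher on day 3. There were 3 higher and 8 lower on day 4, and 3 higher and 9 lower on day 5. Of all genes 1.79%, 14.8% and 16.5% were called higher on these days, and 16% lower on day 5. Called in either direction on day 4 were 5108 of 18132 genes. The 1 called on day 3 was POM121, a nuclear pore protein and the nearest measured gene before NSUN5. Its differences were 0.90, 0.84 and 0.98 on days 3, 4 and 5 and 0.98 in rescue, each ± 0.14 (limma, adjusted p between 1.5e-04 and 0.0037), and its gap was 0.39. In rescue 9 flanking genes were called higher and 1 lower, when 13.8% of all genes were called higher and 4230 of 18132 in either direction. HSPB1, a small heat-shock protein, stood at 1.51 ± 0.12 in rescue (limma, adjusted p = 4.7e-06) and at 0.09 in depleted cells on day 5. POM121, NSUN5 and GTF2I have near-identical copies elsewhere in the band, so the signal of each may be shared with a copy; the probe set assigned to NSUN5P1 read 1.05 higher over the 3 days, and that assigned to POM121C 0.62 lower.

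Other probe sets of the same genes gave a second reading. For BAZ1B 2 of 3 probe sets placed all hairpin-line arrays above all control arrays. The third had a mean depletion difference of 0.31, against 0.84 and 0.96 for the others. For BUD23 4 of 5 did, with mean differences from 1.09 to 1.23, while the fifth, at a level of 4.55, was at -0.23. Both EIF4H probe sets did (0.74 and 1.25), but only 1 of 3 for DNAJC30 and 1 of 2 for BCL7B, and RFC2 had a single probe set. With the mean of all its probe sets DNAJC30 missed the threshold on day 3 (0.54, limma, adjusted p = 0.076) and in rescue against depleted (0.39, adjusted p = 0.067).

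The probe sets of LIMK1 disagreed as well. The brightest, used above, was near 0 throughout. A dimmer one, at a mean level of 4.24, read 1.59 higher in depleted cells on day 3 (limma, adjusted p = 2.0e-04), 1.10 higher on day 4 (adjusted p = 2.0e-04), was at 0.31 on day 5 (adjusted p = 0.18), read 0.69 higher in rescue (adjusted p = 0.0085), and put all hairpin-line arrays above all control arrays. The dimmest, at 3.41, had differences of 0.45 on day 3 and -0.08 on day 5, neither of them called. For ABHD11 5 of 6 probe sets read 0.98 to 2.14 higher in rescue than in control and the other read 0.00. For TBL2 the brightest read 1.28 higher in rescue, and the others 0.82 (limma, adjusted p = 0.0022) and 0.32 (adjusted p = 0.36). For STX1A the brightest read 1.65 higher, and the others 0.49 (adjusted p = 0.028) and 0.31 (adjusted p = 0.089). These adjusted p values were taken over all single-gene probe sets. The chosen probe sets of BUD23, ABHD11, RFC2, NSUN5 and GTF2IRD2 are of a type whose probes can also match related sequences, as the suffix of their identifiers says. Those of EIF4H, CLDN3, CLDN4, MLXIPL, VPS37D and RCC1L carry another suffix, for probes that can be shared by several transcripts.

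**Figure D5:**
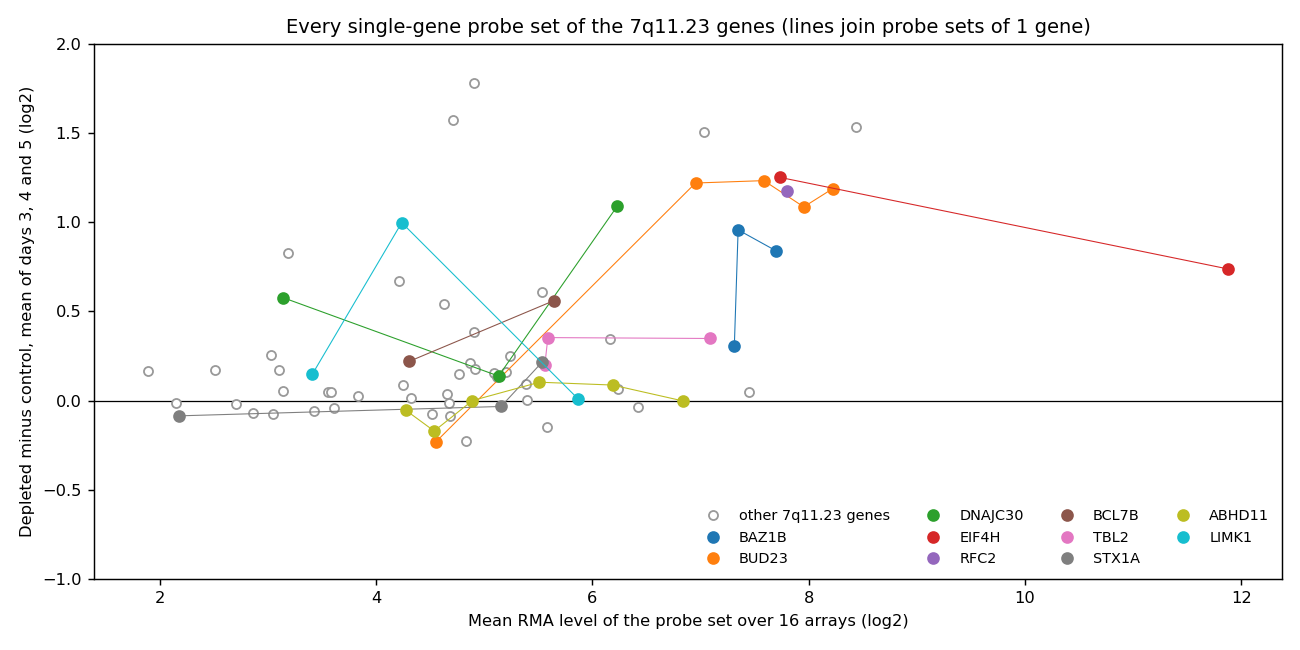
Mean level over 16 arrays and mean depletion difference (both log2) of every single-gene probe set of the genes listed for the band, with lines joining probe sets of 1 member. Bright probe sets of BUD23, BAZ1B, EIF4H and RFC2 lie between 0.74 and 1.25 with 1 exception at 0.31, and LIMK1 spans 0.01 to 1.00.

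Across the 16 arrays the gene most correlated with BAZ1B was POM121 (Pearson r = 0.96), then RFC2 (0.956) and BUD23 (0.932), out of 18131 candidates. With BUD23 the first was EIF4H (0.97), followed by POM121 (0.967), FMR1 on chromosome X (0.948) and BAZ1B (0.932), and NSUN5 was 10th (0.908). DNAJC30 (0.893), BCL7B (0.891) and RFC2 (0.888) ranked 17th, 18th and 21st for BUD23. TBL2, STX1A, ABHD11 and LIMK1 had r between 0.03 and 0.51 with either gene, and among themselves ABHD11 and STX1A stood at 0.892. These correlations describe the split between the hairpin-line and control arrays that chose the list, and by rank (Spearman) 4 of the 10 genes most like BAZ1B and 2 of the 10 most like BUD23 stayed.

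In control cells alone, BAZ1B averaged 7.11 on day 5 and 7.44 on day 0, a difference of -0.33 ± 0.11, and BUD23 differed by -0.27 ± 0.12. The control arrays of day 5 are among those by which both genes were chosen, so these differences are given with no test. Of the neighbours TBL2 rose by 1.54 ± 0.15 (limma, adjusted p = 4.7e-06), reading 7.21 and 6.93 on day 5 against 5.38 and 5.69 on day 0. Its other probe sets disagreed, at 0.90 and at 0.13, the latter not called (limma over all single-gene probe sets, adjusted p = 0.58). ABHD11 rose by 1.00 ± 0.15 (adjusted p = 1.5e-04). Its other probe sets were at 1.04 and 1.10, both called, and at 0.49, 0.37 and -0.03, which were not (limma over all single-gene probe sets). RFC2 fell by 0.45 ± 0.13 (adjusted p = 0.016). That makes 2 of 8 neighbours higher and 1 lower, with 15.9% and 18.1% of all genes. The RFC2 call was lost without control replicate 2 of day 0 (adjusted p = 0.11) or of day 5 (0.171).

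By day 3 of control differentiation TBL2 was already 1.25 ± 0.15 above day 0 (limma, adjusted p = 3.9e-05) and DNAJC30 was 0.44 ± 0.13 below (adjusted p = 0.023), against 13.2% of all genes called higher and 14.6% lower. The other probe sets of TBL2 were at 0.78 and -0.03. In depleted cells, day 5 against day 3, TBL2 fell by 1.13 ± 0.15 (adjusted p = 1.2e-04) and DNAJC30 rose by 0.49 ± 0.13 (adjusted p = 0.015), with backgrounds of 11.4% lower and 11.7% higher. Both DNAJC30 calls over time were lost without single arrays: the first without control replicate 2 of day 0 (adjusted p = 0.212) or of day 3 (0.119), the second without depleted replicate 1 of day 3 (0.125) or replicate 2 of day 5 (0.116). Averaging all its probe sets lost both as well, at -0.18 (limma, adjusted p = 0.45) and 0.10 (adjusted p = 0.70). The other probe sets of DNAJC30 read -0.29 and 0.18 for the first, and -0.08 and -0.11 for the second.

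Markers of cell state also moved between the groups. The 6 definitive endoderm markers other than GATA6, the target of the hairpin, averaged 7.92 to 7.97 in depleted against 8.40 to 8.997 in control on day 3, 4.70 to 5.42 against 9.11 to 9.51 on day 4, and 8.87 to 8.91 in rescue, 5.54 to 5.56 in depleted and 9.46 to 9.81 in control on day 5. In depleted cells 1 was called lower on day 3, 6 on day 4 and 6 on day 5, and 3 were lower in rescue. The 6 pluripotency markers averaged 8.42 to 8.43 in rescue, 10.73 to 10.74 in depleted and 9.93 to 10.14 in control on day 5. Of the 6 pluripotency markers 3 were called lower in depleted on day 3, 4 higher on day 4, 4 higher and 2 lower on day 5, and 5 lower in rescue. Of 4 mesendoderm markers 0 were called on day 3, 1 was higher and 3 lower on days 4 and 5 each, and 4 were lower in rescue. The 5 mesoderm and 4 neuroectoderm markers held at most 2 calls in 1 direction, but some of these shifts were large. On day 5 PAX6 averaged 4.00 in depleted against 7.86 in control, and OTX2 7.86 against 11.68. NES went the other way, at 9.40 against 7.73, and SOX1 was low in both, at 2.35 against 2.43. Control cells of day 0 had the highest pluripotency marker levels (11.18 to 11.21), on arrays with low bioB readings, as given above. The part of these changes in the members' differences was not tested. In bulk RNA of this kind fewer cells of a type and less RNA per cell cannot be told apart. The 6 fibroblast markers averaged 4.42 to 5.17 on hairpin-line arrays and 4.89 to 5.50 on control arrays.

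Genes that work with BUD23, RFC2 and BAZ1B were counted in the same comparisons, in which 1.79% (day 3), 14.8% (day 4), 16.5% (day 5) and 13.8% (rescue) of all genes were called higher. A list of 18 measured genes was drawn up for 18S ribosomal RNA modification and TRMT112-dependent methylation. It also held NSUN5, a gene of the band that methylates a different ribosomal RNA, as given above. In this list 1 gene was called higher on day 3. That gene was NSUN5, so no gene of 18S modification or TRMT112-dependent methylation was called on that day. On day 4 there were 10 higher, and on day 5 there were 12 higher and 1 lower. In rescue 2 were higher and 1 lower than control, and against depleted 0 were higher and 12 lower. Of all genes 16% were called lower in depleted on day 5, and 17.6% lower in rescue than in depleted. NSUN5 is included in the higher counts of all 4 comparisons with control and in the lower count against depleted. NOP58, a box C/D ribonucleoprotein component, was 0.99 ± 0.11 above control in depleted on day 5 (limma, adjusted p = 2.3e-05) and 0.03 above it in rescue (adjusted p = 0.88). DIMT1, an 18S dimethyltransferase, was at 0.83 ± 0.13 (adjusted p = 3.5e-04) and -0.01 (adjusted p = 0.96). TRMT112, the cofactor of BUD23, was at -0.04 (adjusted p = 0.80) and 0.19 (adjusted p = 0.18). BUD23 itself differed by 0.08 between rescue and depleted cells.

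The 9 clamp loader and associated genes measured with RFC2 held 0 called on day 3, 5 higher on day 4, 2 higher on day 5, and 1 higher and 3 lower in rescue. RFC3, a clamp loader subunit, was 0.86 ± 0.15 above control in depleted on day 5 (limma, adjusted p = 5.6e-04) and 0.43 ± 0.15 below it in rescue (adjusted p = 0.048). Of 16 chromatin partners and relatives of BAZ1B, 1 was called higher on day 3, 7 were higher and 4 lower on days 4 and 5 each, and 3 were higher and 2 lower in rescue. SMARCA5, its ATPase partner, was 0.64 ± 0.13 lower in depleted on day 5 (adjusted p = 0.0023) and at 0.07 in rescue (adjusted p = 0.75). On day 3 none of the genes of cap-binding initiation (8 measured), BAF remodelling (14), cofilin regulation (14), SNARE fusion (11), the mitochondrial partners (8) or the PERK branch (6) was called by limma. On day 5 the counts of higher and lower calls in depleted cells were 1 and 2, 1 and 3, 3 and 4, 2 and 1, 2 and 1, and 2 and 0, in the same order. In rescue they were 0 and 1, 0 and 3, 3 and 0, 1 and 0, 4 and 1, and 2 and 1. In none of the 9 partner lists was a gene outside the band called higher in all 4 comparisons with control.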

How the data were processed

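Total RNA of 16 samples was hybridised to PrimeView arrays, 1 each, after 3′ IVT labelling. The authors normalised the scans by RMA in Partek (named in the submitters' processing notes, version not given in the sources used here) and deposited log2 levels for 49395 probe sets. Of these, 44994 named 1 gene in the platform annotation, and for each of 18132 genes the brightest such probe set on average was used. Gene order came from the RefSeq gene table (GRCh38.p14).

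A mean per group was fitted to all arrays with limma 3.58.1 (R 4.3.3). Replicates are independent differentiations per the study, and 2 arrays per group limit precision (median standard error 0.152). The code was tested on simulated data. The 18 gene lists (206 genes, 199 measured) and the members were chosen with earlier results of these data known. Named genes were all members, genes of the band that were called or separated, and the partners and flanking genes that best show their list, the last chosen after their values were seen. Alternatives covered probe set choice, scaling, filtering, moderation, samples fitted, blocking, thresholds and left-out arrays.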

Additional observations from a re-analysis of the deposited data

Results flagged for a closer look

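For 7 genes of the band the difference between depleted and control cells itself differed between day 5 and day 3, by the interaction term of the limma fit. It was lower on day 5 for TBL2 (-1.41 ± 0.21, adjusted p = 5.9e-04), GTF2IRD1 (-1.39 ± 0.22, adjusted p = 8.9e-04), CLIP2 (-1.05 ± 0.30, adjusted p = 0.029) and ABHD11 (-0.86 ± 0.21, adjusted p = 0.012). It was higher on day 5 for NSUN5 (1.02 ± 0.17, adjusted p = 0.0015), MLXIPL (0.87 ± 0.21, adjusted p = 0.012) and CLDN4 (0.84 ± 0.17, adjusted p = 0.0043). The CLIP2 value missed the threshold without depleted replicate 2 (adjusted p = 0.105) or control replicate 1 (0.115) of day 3, and without depleted replicate 1 (0.058), depleted replicate 2 (0.088) or control replicate 2 (0.106) of day 5. The MLXIPL value did so without depleted replicate 2 of day 3 (0.055) or control replicate 1 of day 5 (0.0505). Other probe sets of CLDN4 gave 0.87, not called (limma over all single-gene probe sets, adjusted p = 0.10), and 1.64 (adjusted p = 0.014). Those of ABHD11 gave -0.90, which was called, and -0.78, -0.36, -0.16 and 0.21, which were not. The 4 genes of the first kind were also called higher in control cells on day 5 than on day 0, and CLDN4 was called lower (-0.93 ± 0.12, adjusted p = 5.8e-05). Both differences use the control arrays of day 5.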

How the results depend on the processing

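Most results for single genes kept their side of the threshold: 3162 of 3430 alternative values did, of which 44 that were never called changed sign, 233 lost and 13 gained a call, 16 moved and 6 reversed. Results never called are among the 3430, so the share that kept their side is not that of called results. Averaging all probe sets of a gene turned LIMK1 on day 4 to 0.36 (adjusted p = 0.0084), its day 5 minus day 3 effect to -0.59 and its change between depleted days 5 and 3 to -0.37, with calls for LIMK1 on day 3 (0.69) and over the 3 days (0.38); these values combine 3 probe sets that disagree. It also turned BUD23 between rescue and depleted to -0.0036 and the day 5 minus day 3 effect of BAZ1B to -0.0007, both near 0 throughout, and cyclic loess scaling gave -0.0338 for the first. Fitting only the compared groups left 3 of 8 neighbours called on day 3, where BCL7B (adjusted p = 0.144) and EIF4H (0.069) were lost, and 1 for control day 3 against day 0, as did averaging probe sets. The methods' thresholds (unadjusted p up to 0.01 with a z-score of 3 or more in size) called 1 neighbour on day 3, 3 in rescue against control and 0 in every other comparison. Leaving out 1 array gave 1 to 2 neighbours for control day 3 against day 0 and 1 to 2 for depleted day 5 against day 3.

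Replicate numbers did not pair the samples: deviations correlated at -0.07 to 0.25 over 28 pairs of groups, 4 of them above 0.1. With a replicate block 6 of 8 neighbours were called on day 3 (STX1A added, adjusted p = 0.038), 4 on day 4, 4 on day 5, 7 in rescue against control and 6 in rescue against depleted. The number of all genes called with this block is not given here, so these counts stand without a background share.

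Over all genes, 680 were called on day 3, but 161 with only the compared groups fitted and 254, 326 and 327 without depleted replicates 1 and 2 or control replicate 2 of that day. For rescue against control 4230 were called, but 2085 with the rescue arrays as 1 sample, 2187 and 2194 without either of them and 2716 without control replicate 2 of day 5. Control day 5 against day 0 gave 6158, or 3912 with only the compared groups, and day 3 against day 0 gave 5045 or 2402. Depleted day 5 against day 3 gave 4197, or 2784 without depleted replicate 1 of day 3. The methods' thresholds called 260 to 538 genes per comparison, against 680 to 7156.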
